A study of Caenorhabditis elegans with 12 samples.

Results

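Small RNAs counted to the nuclear hormone receptor genes of Caenorhabditis elegans were followed in 4 groups of libraries. The genes are the block of consecutive WormBase identifiers from WBGene00003600 to WBGene00003720, in which nhr-1 is WBGene00003600, nhr-25 is WBGene00003623 and nhr-49 is WBGene00003639. Of the 121 identifiers in that range 117 are listed in the count table, among 20134 gene identifiers, and these 117 are the members described here. WBGene00003631, WBGene00003665, WBGene00003666 and WBGene00003673 are not analysed here. The table pairs no identifier with a symbol, so the other members are named by identifier and no role is given to them.

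Nuclear hormone receptors are transcription factors with a zinc-finger DNA-binding domain and, in most of them, a domain that can bind a small lipophilic ligand. In nematodes the family has expanded far beyond that of insects and vertebrates, mostly through supplementary receptors related to HNF4. Members govern moulting, dauer entry, fat metabolism and the response to nutrients. What was measured here is not their messenger RNA but small RNA assigned to their loci. In worms much of the small RNA bound by the Argonautes CSR-1 and WAGO-1 is 22G-RNA, made by RNA-dependent RNA polymerases on a transcript as template. CSR-1 is known mainly for small RNAs against genes expressed in the germline, and WAGO-1 for small RNAs of silencing pathways.

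The 12 libraries came from whole worms staged at the fourth larval stage (L4) and grown at 15 °C, in 4 groups with replicates A, B and C in each. The CSR-1 input and CSR-1 IP groups are of genotype 1xFLAG::CSR-1. Both WAGO-1 P3G groups, input and IP, come from worms that hold WAGO-1::FLAG P3G together with WAGO-3 P2G A3E, so both Argonautes carry changes near the amino terminus, numbered as in the labels. IP stands for immunoprecipitation with an antibody to FLAG, and an input is RNA taken without it. The inputs went through a purification kit that enriches small RNA, from 500 ng of total RNA, and the IPs did not, so IP and input also differ in that step. Bait, tag and genotype changed together between the strains, and an IP from untagged worms or of unmodified WAGO-1 was not analysed here. In whole animals, fewer cells of a type and less RNA per cell cannot be told apart. The labels are in conflict on IP and input. In all 3 libraries each of the CSR-1 inputs, WAGO-1 P3G inputs and WAGO-1 P3G IPs, 9 of the 12, the description opens with the other procedure, calling inputs immunoprecipitated and the WAGO-1 P3G IPs total extract. Title, sample name and antibody field match each other in all 12 and set the groups, and every comparison below rests on them. If the opening words held instead, every sign of the WAGO-1 P3G comparison would turn, the CSR-1 strain would have no input library, and neither the CSR-1 comparison nor the joint pattern, the difference of enrichments or the comparison of inputs could be made. The labels do not say that the replicates were separate cultures, so each p-value reflects how much these samples vary and no more.

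Depth differed strongly between inputs and IPs. An input library held 878241 to 1373120 reads in total, a CSR-1 IP 3321443 to 6131378 and a WAGO-1 P3G IP 10952884 to 13473204. The reads on members numbered 451 to 1245, 3690 to 7971 and 11919 to 14127, in the same order. Levels are given as CPM, the reads of a feature scaled to a fixed total of reads counted to any feature, so 3 reads are worth 5.63 to 8.98 CPM in an input, 0.611 to 1.25 CPM in a CSR-1 IP and 0.327 to 0.405 CPM in a WAGO-1 P3G IP. Low levels in the inputs are therefore known only coarsely. The share of reads on no feature was 53.8% to 74.1% in inputs, 19.9% to 27.5% in CSR-1 IPs and 31.7% to 32.3% in WAGO-1 P3G IPs. Replicate A of the CSR-1 IPs differed from B and C of its group, with a chi-square per degree of freedom of 8.97 and 7.58 against them, beside 1.60 between B and C.

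Summed over the 117 members, the CPM stood highest in the CSR-1 inputs, while as a share of all reads, features or not, the WAGO-1 P3G inputs stood lowest. The sum was 2510, 2335 and 2381 CPM in CSR-1 input A, B and C. It was 1624, 1534 and 1568 CPM in the CSR-1 IPs. It was 1565, 1349.9 and 1293 CPM in the WAGO-1 P3G inputs, and 1574, 1609.9 and 1538 CPM in the WAGO-1 P3G IPs. The CSR-1 IPs lay below all CSR-1 inputs, at 0.654 times their mean (1576 ± 45.3 against 2408 ± 90.7 CPM, SD, n = 3 each). In an exact 2-sided permutation test p was 0.1, the smallest that 3 against 3 libraries allow (0.18 adjusted over 9 such tests). As a share of all reads the order was the other way, 0.119% ± 0.00984 in the CSR-1 IPs against 0.104% ± 0.0108 in their inputs, ranges that overlap. The WAGO-1 P3G groups overlapped, at 1574 ± 36.2 CPM in the IPs and 1403 ± 143 CPM in the inputs (exact permutation p = 0.2, 0.257 adjusted). As a share of all reads they did not overlap, at 0.107% ± 0.00199 in the IPs and 0.0375% ± 0.00465 in the inputs.

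A single member made most of the excess of the CSR-1 inputs. WBGene00003614 alone held 41.5% of the members' CPM there and 19.0% in the CSR-1 IPs. Without it the CSR-1 inputs held 1275 to 1549 CPM and their IPs 1204 to 1369 CPM. The WAGO-1 P3G inputs then held 1253 to 1518 CPM and their IPs 1470.3 to 1543 CPM. Each compared pair of groups overlapped (exact permutation p = 0.2 to 0.6). Another member, WBGene00003635, reached 247.1 CPM in WAGO-1 P3G input A, from 84 reads, against 2.99 CPM in B and no read in C. Without it the WAGO-1 P3G IPs lay above all their inputs, at 1570.2 ± 36.2 against 1319 ± 27.1 CPM (exact permutation p = 0.1, again the smallest possible).

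**Figure D1:**
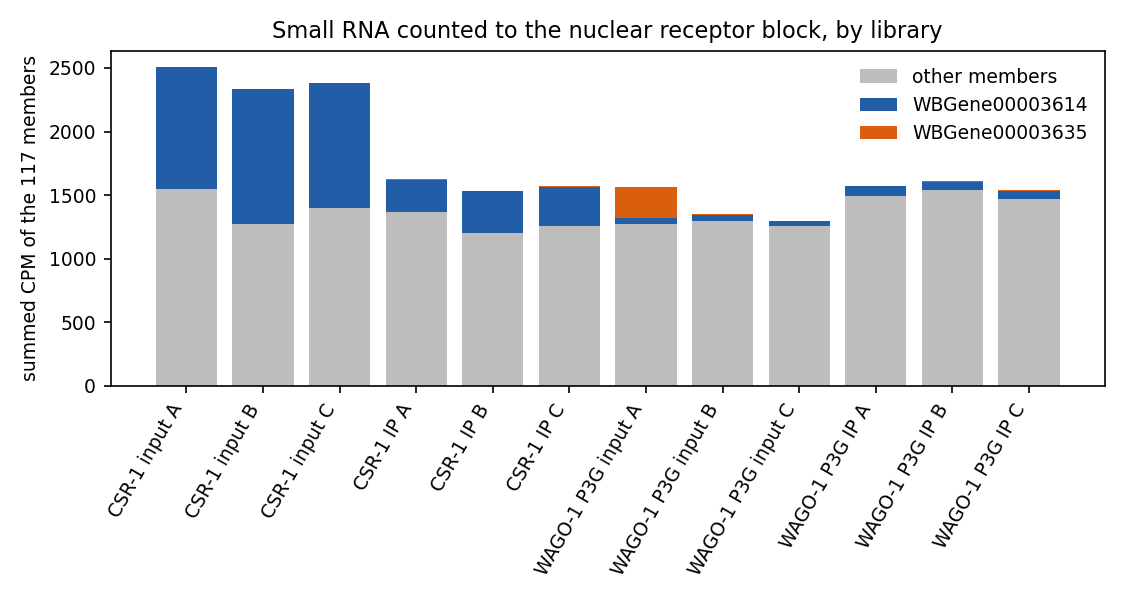
Summed CPM of the 117 members in each of the 12 libraries, as stacked bars that start at 0, with WBGene00003614 and WBGene00003635 set apart by colour. WBGene00003614 fills a large part of the 3 CSR-1 input bars, and WBGene00003635 shows as a block in WAGO-1 P3G input A.

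The members that dominate the sum changed with the bait. In the CSR-1 IPs the 5 most abundant held 78.0% of the members' CPM, against 63.6% in the CSR-1 inputs. They were WBGene00003676 (487 ± 8.40 CPM), WBGene00003614 (299 ± 38.9), WBGene00003622 (219.8 ± 4.70), WBGene00003656 (157 ± 1.71) and nhr-49 (66.01 ± 12.2), all SD with n = 3. In the WAGO-1 P3G IPs the leading 5 held 40.8%, close to the 38.4% of their inputs. There the highest levels were those of WBGene00003637 (191 ± 12.8 CPM), WBGene00003674 (147 ± 5.12), WBGene00003607 (126 ± 5.82), WBGene00003620 (97.2 ± 5.53) and WBGene00003691 (81.1 ± 4.43). The 5 leading members of one IP share none with those of the other. Levels here are not divided by gene length, so they describe where the reads lie and do not rank the genes by abundance.

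Most members carried too little small RNA for a test. Of the 117, 44 passed the filter on low counts, which asks for about 6.81 CPM in at least 3 libraries, and 73 did not. One member had no read in any library. Among the 73, the inputs gave no read for 23 with CSR-1 and 25 with WAGO-1 P3G, and the deeper IPs for 12 with CSR-1 and 2 with WAGO-1 P3G. Their summed mean levels were 101 CPM in the inputs and 65.5 CPM in the IPs of the CSR-1 strain, and 218 CPM and 102 CPM in those of the WAGO-1 P3G strain, where WBGene00003635 made 83.4 CPM of the input value. Of the 44 that passed, 11 were above the minimum in all 12 libraries. A further 11 were above it in all 3 libraries of exactly 1 group, and for 8 of those the group was WAGO-1 P3G IP. Counts over the tested members are therefore descriptions, because a member can enter the test through the one group where it is high.

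The receptors with a known name differed widely in the small RNA they carried. nhr-25, at X:13008493-13013964 of WBcel235, encodes the worm member of the FTZ-F1 (NR5A) family, which is needed for moulting and epidermal development. It was close to the limit of detection. In the CSR-1 strain the inputs gave 1, 0 and 0 reads and the IPs 2, 1 and 1 reads. In the WAGO-1 P3G strain the inputs gave 0, 0 and 1 reads and the far deeper IPs 8, 12 and 15 reads. Its highest mean level was 1.40 ± 0.385 CPM in the WAGO-1 P3G IPs, below what 3 reads are worth in any input, so no comparison between groups was made.

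nhr-49, at I:9869718-9874626, encodes an HNF4-related receptor that governs fatty acid desaturation, fat oxidation and the response to fasting. Across the CSR-1 inputs it read 37.1, 43.1 and 50.9 CPM, and in the CSR-1 IPs 78.8, 54.5 and 64.7 CPM. In the WAGO-1 P3G strain it read 41.2, 23.9 and 30.98 CPM in the inputs and 16.9, 16.3 and 17.3 CPM in the IPs. The CSR-1 IPs thus all lay above their inputs and the WAGO-1 P3G IPs all below theirs. With CSR-1 the log2 difference was 1.05 ± 0.23 (SE), a call at an adjusted p of 0.000238 in edgeR's quasi-likelihood test that was lost when every library was thinned to the reads of the shallowest (0.30, adjusted p = 0.399). With WAGO-1 P3G it was -0.33 ± 0.30 and was not called (adjusted p = 0.328), and it was called at -0.93 (adjusted p = 0.00751) when libraries were scaled by their totals alone. Under 3 alternatives its sign turned with no call (0.20 to 0.42), so no direction is given for nhr-49 with WAGO-1 P3G.

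nhr-1, at X:17519735-17528197, had another profile. It read 56.8, 18.8 and 29.5 CPM in the CSR-1 inputs and 22.6, 14.6 and 13.4 CPM in the CSR-1 IPs, ranges that overlap. It read 2.94, 11.97 and 8.45 CPM in the WAGO-1 P3G inputs, from 1, 4 and 3 reads, and 29.1, 34.4 and 32.2 CPM in the WAGO-1 P3G IPs, every IP above every input. Its log2 difference was -0.52 ± 0.34 with CSR-1 (not called, adjusted p = 0.167) and 2.62 ± 0.48 with WAGO-1 P3G (adjusted p = 3.87e-05 in edgeR), the highest of all tested members with that bait. Without WAGO-1 P3G input replicate B the latter was 3.38 (adjusted p = 4.77e-05). Whether nhr-1 is lower with CSR-1 depends on the setting and on single libraries. It was called under 8 alternatives, between -0.58 with the replicate letter as a block (adjusted p = 0.0473) and -1.14 without CSR-1 IP replicate A (adjusted p = 0.00129), and it turned to 0.18 (adjusted p = 0.702) without CSR-1 input replicate A.

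**Figure D2:**
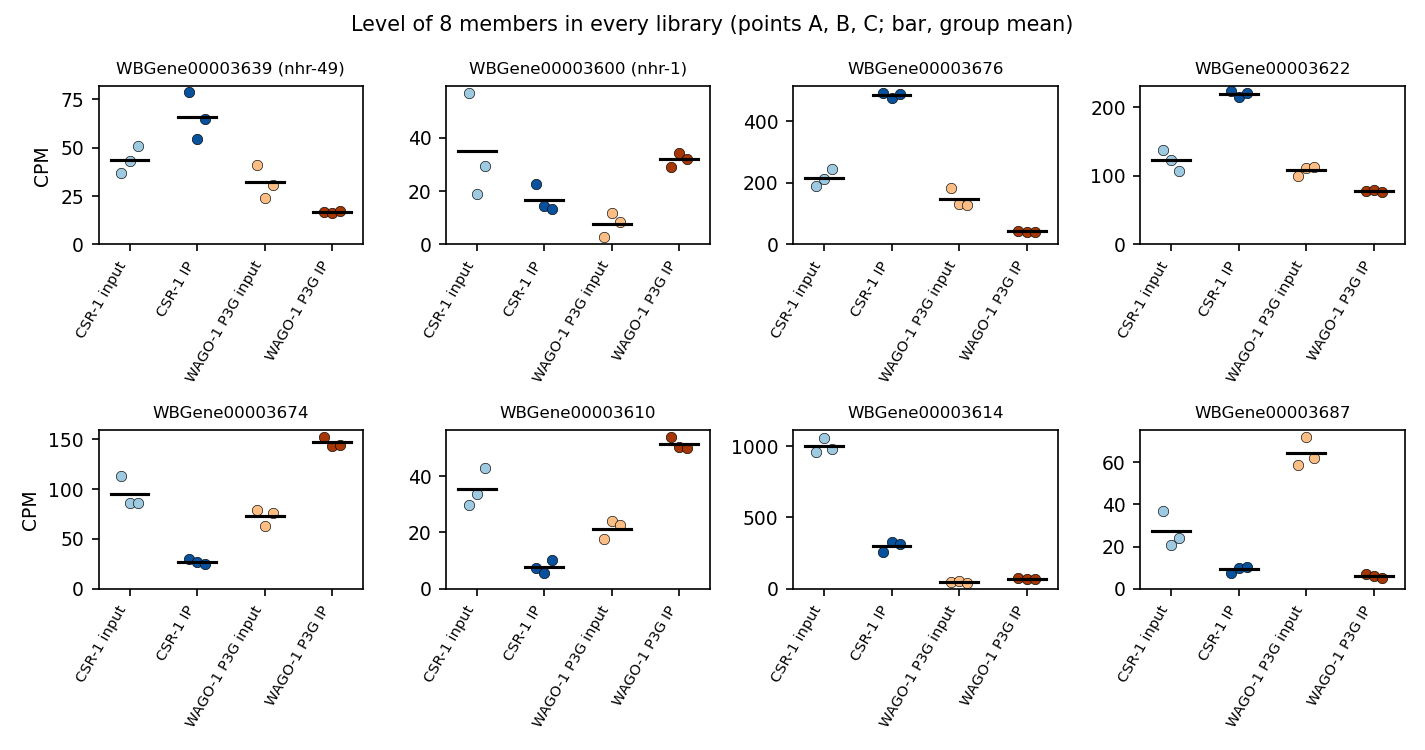
CPM of 8 members in each library, 1 panel per member on its own linear axis from 0, with points for replicates A, B and C and a bar at the group mean. nhr-49, WBGene00003676 and WBGene00003622 are highest in the CSR-1 IPs, WBGene00003674 and WBGene00003610 in the WAGO-1 P3G IPs, WBGene00003614 in the CSR-1 inputs and WBGene00003687 in the WAGO-1 P3G inputs, while nhr-1 has a high mean in the CSR-1 inputs and the WAGO-1 P3G IPs.

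Recovery with CSR-1 asks which members' small RNAs were richer in the IP than in the worms it came from. Here 4 members were higher in the IP and 18 lower, 9.09% and 40.9% of the 44 tested. Over all 10822 features tested, 37.5% were called higher and 33.6% lower, and over the gene identifiers 42.1% and 28%. The median log2 difference was -1.09 over the tested members, -0.08 over all features and 0.27 over the identifiers. Of the 11 members above the minimum in every library, 4 were higher and 6 lower, with a median of -1.08. Called log2 differences ran from 1.05 to 1.59 upward and from -2.98 to -1.08 downward, and all 22 had no overlap between the groups, as had 84.8% of all features called higher and 93.4% of those called lower. Fitted differences rest on TMM scaling, which makes the fold typically 1.34 times the ratio of CPM in this comparison.

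The 4 members higher with CSR-1 were WBGene00003676, WBGene00003622, WBGene00003656 and nhr-49, each also among the 5 most abundant in that IP. WBGene00003676 read 190.2, 214 and 246.6 CPM in the inputs and 493, 477 and 491 CPM in the IPs, with no overlap. That is a log2 difference of 1.59 ± 0.13 (adjusted p = 3.59e-11 in edgeR), or 3.02-fold. WBGene00003622 read 138, 124 and 107 CPM against 224, 215 and 221 CPM, again with no overlap, and rose by 1.26 ± 0.13 (adjusted p = 4.57e-09). When every library was thinned to the reads of the shallowest, these differences were 0.77 (adjusted p = 9.05e-06) for WBGene00003676 and 0.60 (adjusted p = 0.00232) for WBGene00003622, and WBGene00003656 went from 1.22 to 0.49 (adjusted p = 0.0282). These members were tightly grouped among the IP libraries, where their SD was 8.40 and 4.70 CPM.

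The lower end of the CSR-1 comparison rests on few reads. WBGene00003664 read 4.94, 3.75 and 8.04 CPM in the inputs and 0.407, 0.832 and 0.292 CPM in the IPs, which is 7 reads over the 3 inputs and 5 reads over the 3 IPs. All IPs lay below all inputs, with a log2 difference of -2.98 ± 0.78 (adjusted p = 0.00152 in edgeR). WBGene00003681 followed at -1.96 ± 0.45 (adjusted p = 0.000424), from 12.6 ± 4.79 CPM in the inputs to 2.48 ± 0.439 CPM in the IPs. A member with more reads, WBGene00003637, went from 98.8 ± 4.30 to 34.5 ± 2.75 CPM with a log2 difference of -1.08 ± 0.16 (adjusted p = 1.76e-06), which was -1.70 when thinned. Without the outlying CSR-1 IP replicate A, 4 members were higher and 19 lower of 26 tested.

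Recovery with WAGO-1 P3G put most tested members on the other side. Of the 44, 24 were higher in the IP and 6 lower, 54.5% and 13.6%, where over all features 34.1% were called higher and 33.4% lower, and over the identifiers 31.3% and 37%. The median log2 difference was 1.198 over the members, 0.12 over all features and -0.12 over the identifiers. Of the 11 members above the minimum in every library, 6 were higher and 2 lower, with a median of 1.18. Called differences ran from 0.92 to 2.62 upward and from -3.83 to -0.47 downward, with no overlap between the groups for 21 of the 24 and 5 of the 6, beside 73.4% and 98.8% of all features so called. TMM makes the fold typically 1.51 times the CPM ratio here, and with library totals alone the calls were 18 higher and 9 lower, while the median of all features moved to -0.48. With all reads as library size that median was 0.87.

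Besides nhr-1, the highest differences with WAGO-1 P3G included that of WBGene00003604. It read 8.82, 8.98 and 0 CPM in the inputs, from few reads, and 18.2, 25.7 and 20.4 CPM in the IPs, with every IP above every input. Its log2 difference was 2.46 ± 0.50 (adjusted p = 0.000132 in edgeR), and 3.18 or 3.21 without WAGO-1 P3G input replicate A or B. WBGene00003604 is one of the 8 members that reached the minimum in all libraries of the WAGO-1 P3G IPs and of no other group, so it was tested because it is high there, and its rank is a description. Better measured was WBGene00003674, the second most abundant member of that IP, at 79.4, 62.9 and 76.05 CPM in the inputs and 153, 144 and 144 CPM in the IPs. It rose with no overlap, by 1.61 ± 0.17 (adjusted p = 7.43e-09).

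At the lower end of the WAGO-1 P3G comparison stood WBGene00003626 and WBGene00003687. WBGene00003626 had 4, 1 and 2 reads in the inputs and also 4, 1 and 2 reads in the IPs, which are far deeper, so its levels were 11.8, 2.99 and 5.63 CPM against 0.480, 0.135 and 0.218 CPM. The log2 difference was -3.83 ± 0.94 (adjusted p = 0.000978 in edgeR), and without WAGO-1 P3G input replicate A it was -2.90 and no longer called (adjusted p = 0.0622). WBGene00003626 reached the minimum of the filter in 3 libraries only, CSR-1 inputs A and B (7.41 and 7.50 CPM) and WAGO-1 P3G input A. It was thus tested because it is high in inputs, and its value is a description. WBGene00003687 rests on more reads, with 58.8, 71.8 and 61.97 CPM in the inputs and 6.72, 5.81 and 5.01 CPM in the IPs. Every IP lay below every input, and the level fell by 2.86 ± 0.26 on the log2 scale (adjusted p = 1.2e-09), or by 3.81 when thinned.

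WBGene00003687 was the single member lower with both baits. With CSR-1 it went from 37.1, 20.6 and 24.1 CPM in the inputs to 7.33, 9.98 and 10.2 CPM in the IPs, all IPs below all inputs, a log2 difference of -1.15 ± 0.31 (adjusted p = 0.00218 in edgeR). That call was lost without CSR-1 input replicate A, at -0.71 (adjusted p = 0.11), and with no filter on low counts, at -0.68 (adjusted p = 0.263), and when thinned the difference was -2.17 (adjusted p = 0.000209). Its small RNA was thus recovered below the input level with either protein, as these libraries were scaled.

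Set side by side, the comparisons with CSR-1 and with WAGO-1 P3G use separate libraries. In them 14 of the 44 members were lower with CSR-1 and higher with WAGO-1 P3G, 31.8%, a pattern shown by 20.2% of all features and 16.9% of the identifiers. Of the 14, 9 kept both calls in each of the 22 alternatives in which they passed the filter, and 5 lost one call in at least 1 of them. Among the 9, WBGene00003664 passed the filter in only 14 alternatives, and the others in all 22. WBGene00003664 had 7 reads over the CSR-1 inputs and 5 over the CSR-1 IPs. It reached the minimum in all libraries of the WAGO-1 P3G IPs and of no other group, so its place in the pattern is a description. WBGene00003620 lost the CSR-1 call under 4 alternatives, without CSR-1 input replicate A (-1.096, adjusted p = 0.0731) or B (-1.02, adjusted p = 0.129), with no filter (-0.80, adjusted p = 0.365) and with all reads as library size (-0.87, adjusted p = 0.0787). WBGene00003601 and WBGene00003638 lost it with no filter (-1.41, adjusted p = 0.06, and -0.63, adjusted p = 0.302). WBGene00003681 lost the WAGO-1 P3G call with library totals alone (0.96, adjusted p = 0.0783) and WBGene00003654 when thinned (1.07, adjusted p = 0.139). The reverse pattern was shown by 2 members, WBGene00003676 and WBGene00003656, 4.55% against 18.9% and 21.4%. Both are among the 11 members above the minimum in every library. Of those 11, 4 were higher with CSR-1 and 2 lower with WAGO-1 P3G, so the reverse pattern is less rare there than among the 44. No member was called higher with both baits, where 4.49% of all features were. WBGene00003622 joins that class under 8 alternatives, in which its difference with WAGO-1 P3G was called at 0.44 to 0.88, while with library totals alone it was called at -0.47 (adjusted p = 0.00501). A further 10 members, 22.7% against 9.45% of all features, were higher with WAGO-1 P3G and not called with CSR-1, nhr-1 among them. Among these, WBGene00003604, WBGene00003633, WBGene00003645, WBGene00003671 and WBGene00003720 reached the minimum in all libraries of the WAGO-1 P3G IPs and of no other group. The 22.7% is therefore a description. Called with neither were 9, 20.5% against 11% of all features. The fall with WAGO-1 P3G in the reverse pattern is weak for WBGene00003656, at -0.47 ± 0.18 (adjusted p = 0.0221 in edgeR). It turned to 0.075 (adjusted p = 0.833) with no filter on low counts and to 0.28 (adjusted p = 0.149) with all reads as library size. Under 15 more alternatives it kept its sign and lost the call (-0.40 to -0.05), among them DESeq2, median-of-ratios factors, the stricter filter, thinning, and leaving out any 1 library of the WAGO-1 P3G groups or the CSR-1 inputs, or CSR-1 IP replicate C.

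**Figure D3:**
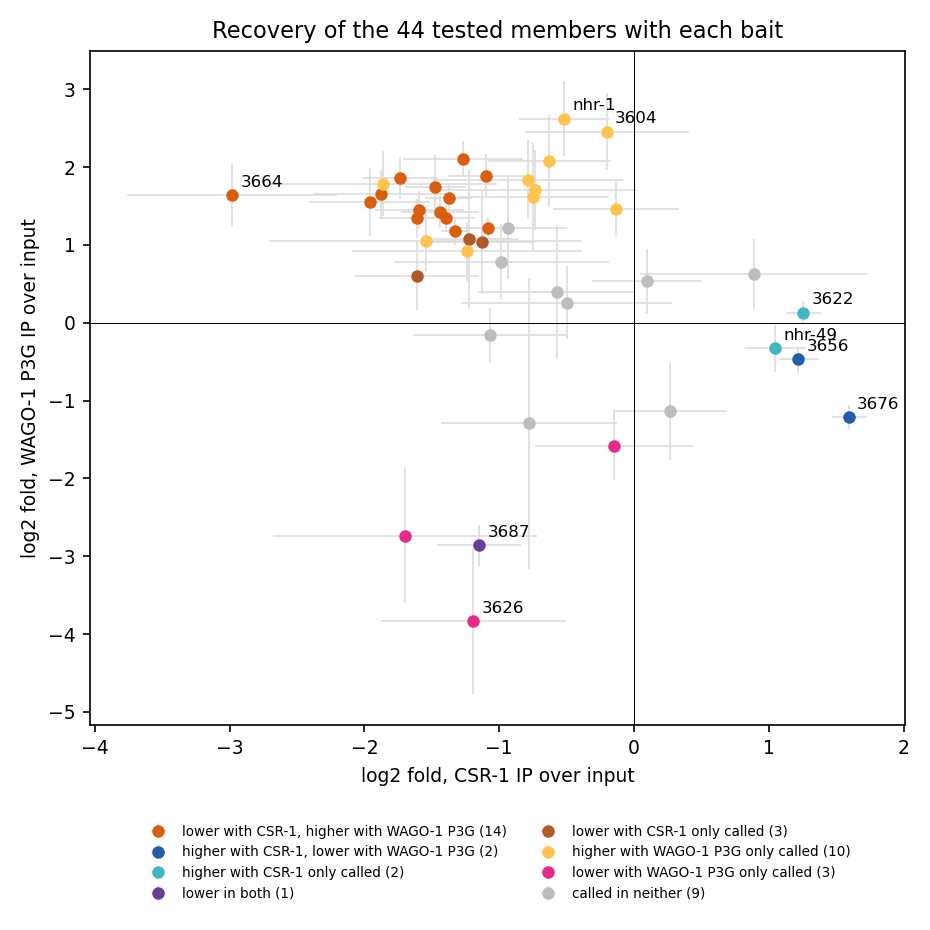
Log2 difference of IP over input for the 44 tested members, with CSR-1 on the horizontal and WAGO-1 P3G on the vertical axis, bars of 1 SE, colour by the pair of calls, and labels that give a symbol or the end of an identifier. The 14 members lower with CSR-1 and higher with WAGO-1 P3G form a group at the upper left, and the 4 members higher with CSR-1 lie at the right, near or below 0 on the vertical axis.

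The 14 members of the main pattern covered a wide range of levels, and their log2 differences ran from -2.98 to -1.08 with CSR-1 and from 1.18 to 2.11 with WAGO-1 P3G. WBGene00003674 shows the pattern at a good depth, with 113.6, 86.3 and 85.8 CPM in the CSR-1 inputs and 29.5, 26.6 and 24.5 CPM in the CSR-1 IPs, beside its rise with WAGO-1 P3G above. Every CSR-1 IP lay below every input, at -1.38 ± 0.17 (adjusted p = 1.19e-07 in edgeR), or -1.98 when thinned. WBGene00003610 shows it at a lower level, with 29.6, 33.8 and 42.9 CPM in the CSR-1 inputs against 7.33, 5.41 and 10.2 CPM in the IPs, and 17.6, 23.9 and 22.5 CPM in the WAGO-1 P3G inputs against 53.9, 50.5 and 50.2 CPM in the IPs. Neither pair of groups overlapped, and its log2 differences were -1.74 ± 0.28 (adjusted p = 6.82e-06) and 1.86 ± 0.27 (adjusted p = 1.47e-06), the former -3.14 when thinned.

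Before any IP, fewer members, and likewise fewer of all features, differed between the 2 strains than between IP and input. Against the CSR-1 inputs, the WAGO-1 P3G inputs were higher for 6 members and lower for 7, 13.6% and 15.9% of the 44, beside 19.7% and 18.7% of all features. The median log2 difference was -0.12 over the members and 0.03 over all features. Of the 11 members above the minimum in every library, none was higher and 2 were lower. This comparison shares its input libraries with both IP comparisons. It also depends on the scaling, since with all reads as library size 1 member was higher and 17 were lower, and the median of all features moved to -0.56.

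WBGene00003614 differed most between the inputs. It read 961, 1059.6 and 976 CPM in the CSR-1 inputs, from 389, 565 and 364 reads, and 47.1, 53.9 and 39.4 CPM in the WAGO-1 P3G inputs, from 16, 18 and 14 reads. The groups lie far apart, at a log2 difference of -4.50 ± 0.16 (adjusted p = 7.18e-17 in edgeR), or 22.7-fold lower. The IPs of the strains kept that order, at 255, 330.1 and 312 CPM with CSR-1 and 75.4, 67.1 and 67.4 CPM with WAGO-1 P3G. Relative to its own input the member was lower with CSR-1 (-1.33 ± 0.10, adjusted p = 1.96e-11, or -2.01 when thinned) and higher with WAGO-1 P3G (1.18 ± 0.18, adjusted p = 4.5e-06).

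Few reads stand behind the other large input differences. WBGene00003630 had 17, 16 and 13 reads in the CSR-1 inputs against 0, 3 and 0 in the WAGO-1 P3G inputs, a ratio of 12.03 with a 95% counting interval of 3.87 to 60.5, and a fitted log2 difference of -3.65 ± 0.73 (adjusted p = 0.000298 in edgeR). In the other direction WBGene00003706 had 1, 0 and 2 reads in the CSR-1 inputs against 3, 9 and 5 in the WAGO-1 P3G inputs, a ratio of 7.22 with an interval of 2.09 to 38.5. Its fitted difference was 2.74 ± 0.83 (adjusted p = 0.0105), and the call was lost without CSR-1 input replicate B (1.99, adjusted p = 0.0698) or WAGO-1 P3G input replicate B (2.16, adjusted p = 0.0966). Such intervals cover counting error only. WBGene00003630 reached the minimum in all libraries of the CSR-1 inputs and of no other group, and WBGene00003706 in those of both WAGO-1 P3G groups and no other. Each was thus tested through groups where it is high, and its value is a description. nhr-1 was also lower before IP in the WAGO-1 P3G strain, at -2.19 ± 0.58 (adjusted p = 0.00426), while nhr-49 was not called (-0.52 ± 0.34, adjusted p = 0.233), and WBGene00003687, already described, was higher (1.18 ± 0.31, adjusted p = 0.00366). With all reads as library size nhr-49 was called lower (-1.12, adjusted p = 0.00739) and the call of WBGene00003687 was lost (0.58, adjusted p = 0.143).

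**Figure D4:**
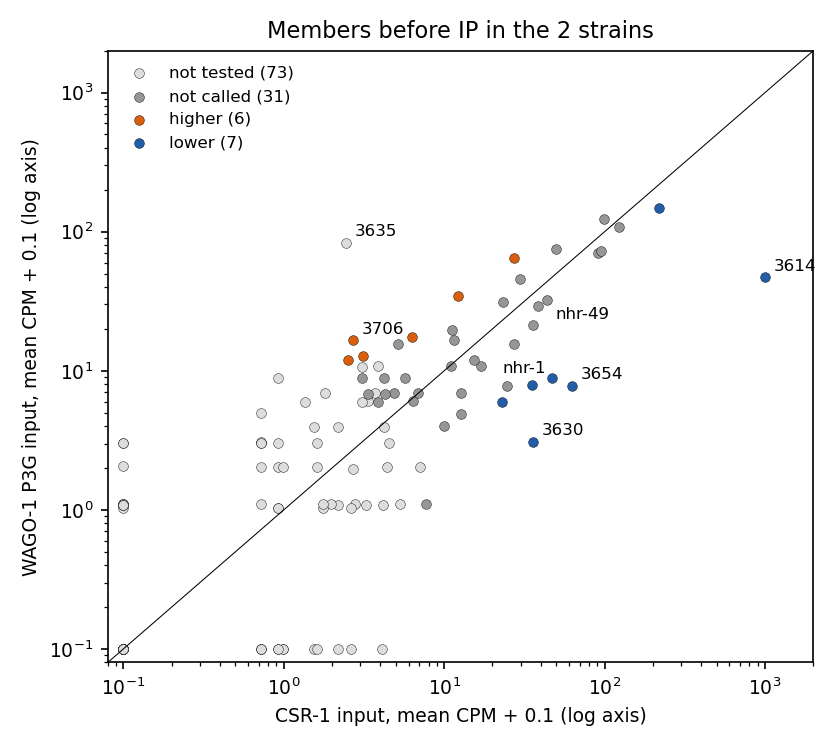
Mean CPM plus 0.1 of the 117 members in the CSR-1 inputs (horizontal) and the WAGO-1 P3G inputs (vertical), both on log axes, with colour by call, a line of equality, and labels that give a symbol or the end of an identifier. WBGene00003614 lies far below the line, and WBGene00003635, not tested, stands above it through a single library.

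The difference of enrichments, the log2 IP over input with WAGO-1 P3G minus that with CSR-1, tests whether recovery differed between the baits. It was higher for 27 members and lower for 6, 61.4% and 13.6% of the 44, where 33.9% of all features were called higher and 40% lower, and 28.2% and 44.6% of the identifiers. Its median was 2.296 over the members, -0.34 over all features and -0.76 over the identifiers. It is built from the same 12 libraries as the comparisons above and is no separate evidence. Of the 11 members above the minimum in every library, 6 were higher and 4 lower. The called values ran from 1.59 to 4.62 and from -2.80 to -1.13, and the 14 members of the main pattern were all called, at 2.301 to 4.62. Those 14 were chosen for a fall with CSR-1 and a rise with WAGO-1 P3G, so their sign here follows from that choice.

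The largest fitted difference of enrichments was that of WBGene00003664, 4.62 ± 0.91 (adjusted p = 7.37e-05 in edgeR), with 17.5, 18.8 and 18.0 CPM in the WAGO-1 P3G IPs above its inputs at 5.88, 15.0 and 5.63 CPM. WBGene00003671 followed at 3.65 ± 1.02 (adjusted p = 0.00253). Both reached the minimum in all libraries of the WAGO-1 P3G IPs and of no other group, so they were tested because they are high there, and their rank is a description. WBGene00003671 had 5 reads over the CSR-1 inputs and 8 over the CSR-1 IPs, and without CSR-1 input replicate C the value was 2.98 and not called (adjusted p = 0.0624). At the other end WBGene00003676 had the lowest value, -2.80 ± 0.20 (adjusted p = 5.47e-12), or -2.03 when thinned. It read 182, 132 and 129.6 CPM in the WAGO-1 P3G inputs and 44.4, 40.4 and 41.9 CPM in the IPs, every IP below every input. WBGene00003626, tested through input libraries alone, was next, at -2.64 ± 1.04 (adjusted p = 0.0259), and its rank is a description. That call was lost under 8 alternatives (-2.65 to -1.89). They were DESeq2 (-2.48, adjusted p = 0.0573), no filter (-2.58, adjusted p = 0.054), identifiers only (-2.25, adjusted p = 0.0526), and leaving out any 1 of the CSR-1 inputs or WAGO-1 P3G input A or C.

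The named receptors fell on opposite sides of this contrast. nhr-1 stood at 3.14 ± 0.61 (adjusted p = 6.36e-05 in edgeR) and nhr-49 at -1.38 ± 0.39 (adjusted p = 0.00265). For nhr-49 the call was lost without WAGO-1 P3G input replicate A, at -1.03 (adjusted p = 0.0535), and when thinned, at -0.34 (adjusted p = 0.571). WBGene00003622, WBGene00003656 and WBGene00003687 were the remaining members called lower, at -1.13 ± 0.20, -1.69 ± 0.23 and -1.71 ± 0.38. The calls of WBGene00003622, WBGene00003656 and WBGene00003687 were lost when every library was thinned to the reads of the shallowest, at -0.43 (adjusted p = 0.154), -0.64 (adjusted p = 0.0894) and -1.64 (adjusted p = 0.117).

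**Figure D5:**
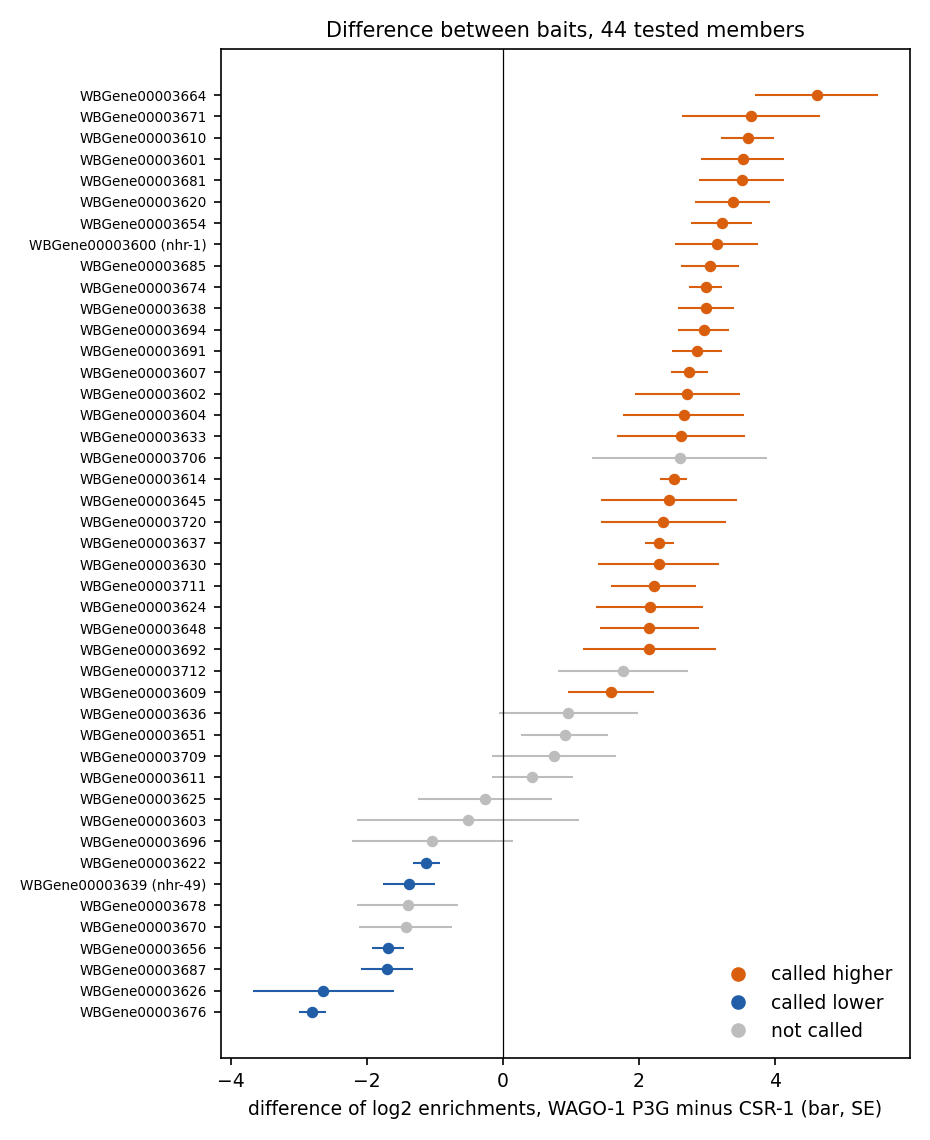
Difference of log2 enrichments (WAGO-1 P3G minus CSR-1) for the 44 tested members, sorted, with bars of 1 SE and colour by call. The 27 members called higher reach from 1.59 to 4.62 and the 6 called lower from -2.80 to -1.13, with nhr-1 in the former and nhr-49 in the latter.

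The count table also lists intervals named by position, and some lie in receptor genes whose symbols RefSeq gives. RefSeq (WBcel235) lists 283 genes with an nhr symbol, 269 of them protein-coding and 14 pseudogenes, and 176 of the 283 lie on chromosome V. They overlap 339 intervals in 129 genes, of which 185 had no read and 2 were tested. These intervals are not members, since no source at hand says which identifier belongs to their gene. They were placed in genes by position alone, whatever the strand, and whether their reads come from the receptor gene was not tested.

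The first interval lies in nhr-88, at II:2980283-2982620, listed on the plus strand. It read 269, 338 and 329.7 CPM in the CSR-1 inputs and 68.3, 89.4 and 90.1 CPM in the CSR-1 IPs. It read 324, 365 and 425 CPM in the WAGO-1 P3G inputs and 827, 897 and 881 CPM in the IPs. Neither pair overlapped, and its log2 differences were -1.52 ± 0.13 (adjusted p = 1.07e-10 in edgeR) with CSR-1 and 1.82 ± 0.12 (adjusted p = 3.05e-12) with WAGO-1 P3G. That pair of directions, also that of the 14 members, was shown by 20.2% of all features and 16.9% of the identifiers. It was thus more common among the tested intervals than among the identifiers. The inputs did not pass the test (0.16 ± 0.13, adjusted p = 0.360).

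The second lies in nhr-15, at V:319141-319614, also on the plus strand. It read 158, 124 and 96.5 CPM in the CSR-1 inputs against 18.9, 23.3 and 23.9 CPM in the CSR-1 IPs, and 26.5, 21.0 and 25.4 CPM in the WAGO-1 P3G inputs against 24.5, 20.4 and 22.3 CPM in the IPs. The CSR-1 inputs stand above the other 9 libraries. Its log2 difference was -2.11 ± 0.19 with CSR-1 (adjusted p = 2.27e-10 in edgeR), 0.48 ± 0.28 with WAGO-1 P3G (not called, adjusted p = 0.134) and -2.46 ± 0.27 between the inputs (adjusted p = 4.93e-08).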

How the data were processed

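Small RNA was sequenced from 12 libraries, 3 in each of 4 groups, set by title, sample name and antibody field. The opening of the description names the other procedure, IP or input, in 9 of the 12. The deposited values are raw counts per feature, whole numbers with no normalization by the authors. Per the submitters' processing notes, HTSeq 0.11.2, cutadapt 2.3, Bowtie 1.2.3, SAMtools 1.9 and the build ce11 were used. Not given in the sources used here: strand setting, annotation and the treatment of reads that align several times. Receptor genes with near-identical copies may therefore share reads and are uncertain, and sense and antisense reads cannot be told apart. Reads on no feature were left out of library sizes and tests.

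The members and lists were chosen with earlier results of these data known. The main test was the quasi-likelihood F test of edgeR 4.0.16 (R 4.3.3), with TMM factors, after filterByExpr had kept features by group at a minimum count of 10. It ran on all 12 libraries together, 1 mean for each group, which leaves 8 residual degrees of freedom, and on 9536 identifiers and 1286 intervals. Calls are at 0.05 after Benjamini-Hochberg adjustment of p over these 10822 features. SE was approximated as the size of the log2 difference over the square root of F. The edgeR fit was tested on simulated counts with changes set in the CSR-1 IPs. DESeq2 1.42.0 was among the alternatives. Summed CPM was compared by exact 2-sided permutation.

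Members named by rule were nhr-1, nhr-25, nhr-49, the 5 most abundant per group, and per comparison the 6 highest and 6 lowest called. The text gives about 2 per direction in detail, and the rest as counts and ranges. WBGene00003635 was singled out after its values were seen. The 11 lists of receptor subfamilies, ligand, coregulator, target and moulting genes and of cell type markers are by symbol. They matched 0 identifiers and gave no result, so the tissue could not be checked by markers.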

Additional observations from a re-analysis of the deposited data

Results flagged for a closer look

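The effect of IP differed between the strains, by the test of the difference itself, for 27 members that were higher with WAGO-1 P3G and 6 that were higher with CSR-1, 61.4% and 13.6% of the 44 tested beside 33.9% and 40% of all features. Of the 44, 8 reached the minimum in all libraries of the WAGO-1 P3G IPs and of no other group, so these counts are descriptions. Above the minimum in every library were 11 members, 6 of them higher with WAGO-1 P3G and 4 higher with CSR-1. Among the members the largest differences of log2 enrichments were 4.62 for WBGene00003664 and 3.65 for WBGene00003671, and the lowest were -2.80 for WBGene00003676 and -2.64 for WBGene00003626. WBGene00003664 and WBGene00003671 entered the test through the WAGO-1 P3G IPs, where they are high, and WBGene00003626 through input libraries alone, so their values are descriptions. Of the members named here, WBGene00003676 alone rests on many reads in every group. Single values within a group of 3 were not tested as outliers.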

How the results depend on the processing

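Counts of called members changed more with the filter, the scaling and thinning than with the tool. Thinning left 6721 features tested, beside 10822, with scaling factors fitted anew, so depth and scaling changed together there. With CSR-1 it moved differences of both signs downward, WBGene00003676 from 1.59 to 0.77 and WBGene00003674 from -1.38 to -1.98. Members lower with CSR-1 numbered 11 with no filter on low counts. Members lower with WAGO-1 P3G numbered 2 with a stricter filter, 10 in a fit of the compared groups alone and 2 when libraries were thinned to the shallowest, where 12 were higher. Between the inputs, 1 member was higher and 4 were lower in the compared groups alone, 3 were higher with the replicate block, 2 when thinned, and 1 was higher and 17 lower with all reads as library size. In the difference, 13 were higher and 1 lower when thinned. Leaving out 1 library gave 4 to 5 higher and 14 to 19 lower with CSR-1, 16 to 31 and 2 to 9 with WAGO-1 P3G, 2 to 6 and 5 to 8 between the inputs, and 18 to 31 and 5 to 7 in the difference. Leaving out or thinning libraries also changed how many members passed the filter, from 19 when thinned to 63. The WAGO-1 P3G difference turned to -0.47 for WBGene00003622 (adjusted p = 0.00501) with library totals alone, while 8 alternatives called it higher (0.44 to 0.88), and for WBGene00003656 to 0.075 with no filter and 0.28 with all reads as library size. In CPM every WAGO-1 P3G IP lay below every input for both members. The causes were not tested. Other counts stayed within 1.5 times their value. Thinning and the size by all reads were chosen after seeing the data. Libraries with the same letter correlated at r = 0.039 to 0.313 between CSR-1 input and IP, -0.0095 to 0.021 in the WAGO-1 P3G strain and -0.00069 to 0.041 between the inputs, so not every same-letter pair passed 0.1, although A and B of the CSR-1 strain did, and the letters were not taken as pairs. With the replicate block the calls, higher and lower, were 4 and 21 with CSR-1, 26 and 6 with WAGO-1 P3G, 3 and 8 between the inputs and 27 and 6 in the difference. In no pair of groups did every library correlate best with its own letter. The shallow inputs limit every low level.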
